A study of Mus musculus with 12 samples.

Results

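Matrix metalloproteinases and the tissue inhibitors that bind them were followed in MC38 cells, a mouse colon adenocarcinoma line, under 2 guide RNAs and with or without lactate. The genes were taken by symbol from the deposited expression values, as 6 metalloproteinase genes (Mmp2, Mmp3, Mmp9, Mmp10, Mmp13 and Mmp14) and 3 inhibitor genes (Timp1, Timp2 and Timp3). Of these 9 symbols 8 had an entry among the 42329 entries of the table, and Mmp10 was not analysed here beyond its promoter sequence. Cells had been given a control guide RNA (sgControl) or one directed at Hcar1 (sgHcar1), which encodes a lactate-sensing receptor. Both kinds of cells received saline (PBS) or 20 mM lactate over 24 hours. The 4 groups were thus sgControl in PBS, sgControl in lactate, sgHcar1 in PBS and sgHcar1 in lactate, with 3 libraries in each. The labels do not say whether the sgHcar1 cells were 1 clone or a mixed population, nor which salt or acid of lactate was added. Whether replicate libraries are separate cultures is not stated either, so p-values measure only the spread between these libraries.

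Matrix metalloproteinases are zinc enzymes that cut collagens, gelatin, laminin, fibronectin and many secreted or surface proteins. They are made as inactive proenzymes, and a propeptide cysteine holds the catalytic zinc until it is cut away. The gelatinases Mmp2 and Mmp9 cut denatured and basement membrane collagen, Mmp13 is a collagenase of fibrillar collagen, Mmp3 and Mmp10 are the stromelysins, and Mmp14 is a membrane-anchored collagenase. The inhibitors bind active enzymes with equal stoichiometry, and Timp2 has a further role, since Mmp14 at the cell surface uses it to dock and activate the Mmp2 proenzyme. In colon tumors much of the metalloproteinase message is known to come from stromal cells, while cultured lines differ widely in what they make.

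Values are FPKM, fragments scaled by the length of the gene model and by the library total, so levels can be compared between genes. The targeted gene gave no check of the labels: Hcar1 was listed at 0 in 11 of the 12 libraries, all 6 sgControl libraries among them, and at 0.0196 FPKM in sgHcar1 PBS replicate 1. Loss of Hcar1 in the libraries labelled sgHcar1 was therefore not visible in these data. Differences are in log2(FPKM + 1) ± standard error from limma over 13736 genes, which understates changes of genes at low levels. Read depth is unknown, but the steps between low values put the depth of each library at 0.746 to 1 of the deepest one, lowest in sgHcar1 cells with lactate (0.746 to 0.793). Correlation of log2 levels was 0.990 to 0.992 within a group and 0.806 to 0.837 between guides within a treatment. Of 10 colon epithelium markers 9 had an entry, and the defining markers Epcam and Cdx2 were listed at 0 in all 12 libraries. FPKM sums differed between groups, and with every library rescaled to a sum of 1000000 the median difference over all genes moved to -0.12 for lactate in sgHcar1 cells, to -0.20 for the difference of the lactate effects, and to -0.16 (PBS) and -0.37 (lactate) between guides. Under that rescaling the share of calls that were higher went from 50.9% to 40.0%, from 51.4% to 30.1%, from 49.9% to 38.6% and from 50.3% to 31.7% in these comparisons.

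Mmp2 and Timp2 were the most abundant members in sgControl cells, and Mmp2 was close to absent in sgHcar1 cells. Lactate raised Mmp2, Mmp9, Mmp14 and Timp3 and lowered Timp1 and Timp2 in sgControl cells. In sgHcar1 cells lactate lowered Mmp14 and Timp2 and raised Mmp13, Timp1 and Timp3, the last from a level near 0. In sgControl cells 6 of the 8 genes passed an adjusted p of 0.05 (4 higher, 2 lower), where 65.7% of all genes tested did (33.9% higher, 31.9% lower). In sgHcar1 cells 5 of 8 passed (3 higher, 2 lower), where 72.2% of all genes did (36.8% higher, 35.4% lower), so both shares lie near the background. The lactate and PBS groups did not overlap for 6 of 8 genes under each guide, where 70.2% (sgControl) and 73.6% (sgHcar1) of all genes did not.

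**Figure D1:**
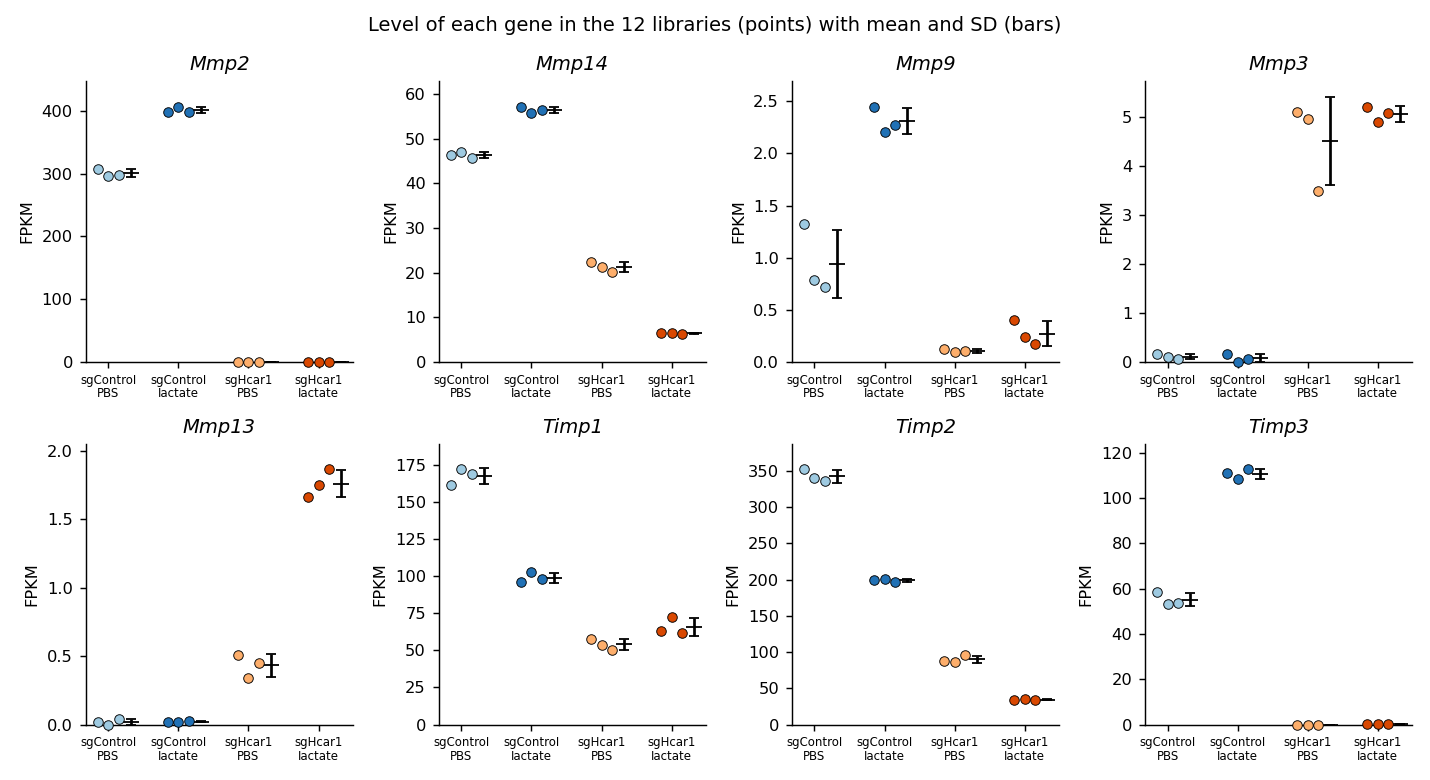
FPKM (vertical axes, linear from 0, 1 scale per gene) of the 8 genes in the 12 libraries. Points are libraries and the bars beside them are mean ± SD of the 3 libraries of a group. Mmp2 and Timp3 are near 0 in the 6 sgHcar1 libraries, while Mmp3 is at 3.49 FPKM or more in those and at most 0.160 FPKM in the 6 sgControl libraries.

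Mmp2 (gelatinase A; GRCm38 chromosome 8, 92827291 to 92853420, plus strand) stood at 308, 296 and 298 FPKM in the sgControl libraries in PBS and at 398, 407 and 399 FPKM with lactate. The groups did not overlap, and the rise was 1.34-fold by the means, 301 ± 6.39 against 401 ± 5.06 FPKM (log2 difference 0.42 ± 0.03, limma adjusted p = 5.42e-07). In sgHcar1 cells Mmp2 was listed at 0, 0.0214 and 0 FPKM in PBS and at 0.0236, 0 and 0.0746 FPKM with lactate. These groups overlapped, and no lactate difference passed (0.04 ± 0.03, 95% interval -0.03 to 0.11, limma adjusted p = 0.340). At such levels a library holds few fragments of the gene or none. Between guides the difference was -8.23 ± 0.03 in PBS and -8.61 ± 0.03 in lactate, in absolute size number 2 of 13736 genes in both. With a pseudocount of 0.1 in place of 1 they were -11.46 and -11.60, so the size of the fold rests on the pseudocount.

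Mmp9 (gelatinase B; chromosome 2, 164940780 to 164955850, plus strand) was a low-level gene. It was at 1.32, 0.790 and 0.716 FPKM in sgControl cells in PBS and at 2.45, 2.21 and 2.27 FPKM with lactate, 2.45-fold higher by the means. All 3 lactate libraries lay above all 3 PBS libraries (0.78 ± 0.11, limma adjusted p = 8.70e-05). Mmp9 entered the fit through those 3 lactate libraries and sgControl PBS replicate 1, so that it rose is in part fixed by the filter. In sgHcar1 cells the values were 0.127, 0.0920 and 0.102 FPKM in PBS and 0.405, 0.241 and 0.171 FPKM with lactate. They did not overlap, but the difference did not pass (0.20 ± 0.11, limma adjusted p = 0.138). With a pseudocount of 0.1 it passed (0.80, adjusted p = 0.0153), as it did without the sgControl PBS replicate 1 (0.20, adjusted p = 0.0436), the library with the highest Mmp9 of its group. Mmp9 was lower in sgHcar1 than in sgControl cells in PBS (-0.80 ± 0.11) and in lactate (-1.38 ± 0.11).

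Mmp14 (MT1-MMP, the surface activator of the Mmp2 proenzyme; chromosome 14, 54431612 to 54445364, plus strand) moved in opposite directions with lactate under the 2 guides. In sgControl cells it went from 46.4, 47.0 and 45.7 FPKM to 57.2, 55.7 and 56.4 FPKM, a 1.22-fold rise (0.28 ± 0.04, limma adjusted p = 4.37e-05). In sgHcar1 cells it went from 22.5, 21.3 and 20.1 FPKM to 6.40, 6.53 and 6.27 FPKM, which is 0.301 of the PBS mean (-1.59 ± 0.04, limma adjusted p = 2.40e-11). No 2 of the 4 groups overlapped, in the order sgControl with lactate, sgControl in PBS, sgHcar1 in PBS, sgHcar1 with lactate. The difference of the lactate effects was -1.87 ± 0.05 (limma adjusted p = 2.16e-09), and 1.20% of all genes had one at least as large in absolute size. Of 7149 genes called for lactate under both guides, 1021 went in opposite directions, Mmp14 among them.

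Mmp3 (stromelysin 1; chromosome 9, 7445822 to 7455975) and Mmp13 (collagenase 3; chromosome 9, 7272514 to 7283331) lie on the plus strand of the same stretch of chromosome 9 as Mmp10 (stromelysin 2; 7502352 to 7510240). Both were higher in sgHcar1 cells, the reverse of Mmp2, Mmp9 and Mmp14. Their RefSeq promoters on GRCm38.p6 are shown because they share letters that the other members' promoters in that table lack. The last 90 bases before the annotated start are given 5′ to 3′ on the plus strand, with capitals for the AP-1 letters TGANTCA, the known site of Fos and Jun dimers, and for the TATA box letters TATAAA.
Mmp3, chr9:7445732-7445821: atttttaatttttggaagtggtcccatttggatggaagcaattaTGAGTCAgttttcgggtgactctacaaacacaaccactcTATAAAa
Mmp10, chr9:7502252-7502341: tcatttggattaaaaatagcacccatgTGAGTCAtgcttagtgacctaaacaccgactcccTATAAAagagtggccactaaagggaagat
Mmp13, chr9:7272424-7272513: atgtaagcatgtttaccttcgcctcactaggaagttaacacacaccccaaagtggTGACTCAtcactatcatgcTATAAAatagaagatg

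The table held promoters for 7 of the 9 symbols, all but Mmp2 and Mmp9. Both motifs were sought on both strands of the 250 bases before the start, and so was the NF-kB site. The AP-1 letters began 46 bases before the start in Mmp3, 63 in Mmp10 and 35 in Mmp13. The TATA box letters lay downstream of them in all 3, at unlike distances. They began 7 bases before the annotated start in Mmp3, 29 in Mmp10 and 16 in Mmp13. Neither motif was in these windows of Mmp14, Timp1, Timp2 or Timp3, and the NF-kB site was in none of the 7. Among all 32851 promoters listed there, 6.75% held the AP-1 letters, 12.4% the TATA box letters, 1.21% both and 7.25% the NF-kB site. A match is a description of these letters and not a measured binding site.

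**Figure D2:**
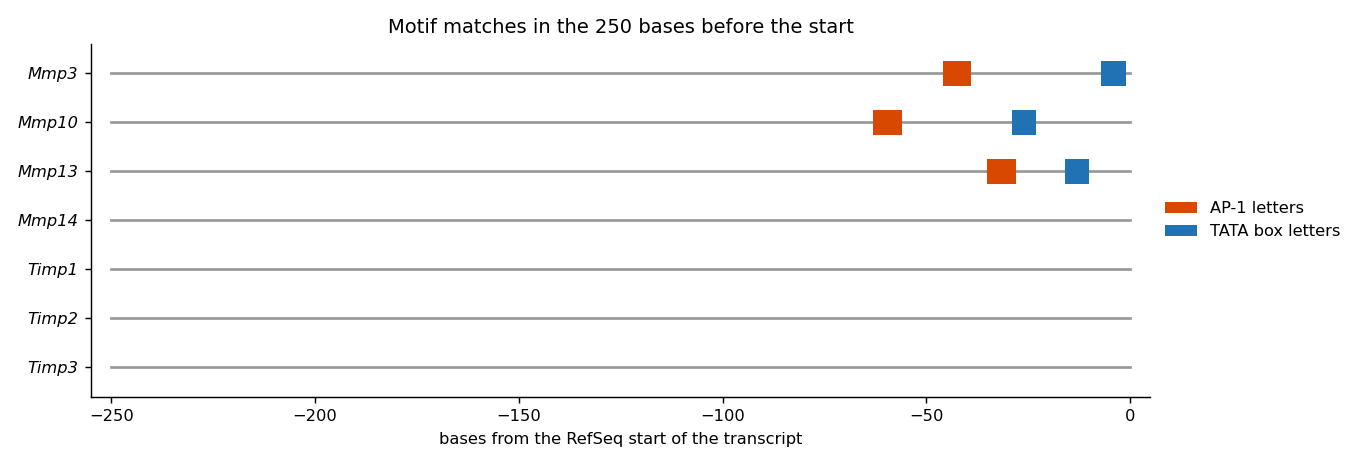
Matches to the AP-1 and TATA box letters (colored boxes) in the 250 bases before the RefSeq start of 7 genes, with the distance from the start in bases on the horizontal axis. Mmp3, Mmp10 and Mmp13 each hold 1 AP-1 match followed by 1 TATA box match.

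Mmp3 was at 0.160, 0.106 and 0.0627 FPKM in sgControl cells in PBS and at 0.159, 0 and 0.0693 FPKM with lactate. In sgHcar1 cells it was at 5.12, 4.96 and 3.49 FPKM in PBS and at 5.22, 4.90 and 5.08 FPKM with lactate. The guides did not overlap in either treatment (2.30 ± 0.11 in PBS, limma adjusted p = 4.58e-09, and 2.50 ± 0.11 in lactate, adjusted p = 1.73e-09). Lactate and PBS overlapped under both guides, with differences of -0.05 ± 0.11 in sgControl cells (95% interval -0.29 to 0.19) and 0.15 ± 0.11 in sgHcar1 cells (-0.09 to 0.39). The difference of the lactate effects passed for 7 of the 8 genes (2 higher, 5 lower in sgHcar1 cells), where 59.1% of all genes passed (30.4% higher, 28.7% lower). Mmp3 was the exception (0.19 ± 0.15, limma adjusted p = 0.300).

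Mmp13 was at 0.0215, 0 and 0.0421 FPKM in sgControl cells in PBS and at 0.0213, 0.0224 and 0.0233 FPKM with lactate. In sgHcar1 cells it was at 0.505, 0.341 and 0.452 FPKM in PBS and at 1.66, 1.75 and 1.86 FPKM with lactate, 4.07-fold higher by the means. The last group stood clear of the other 9 libraries, while the sgControl groups overlapped. The lactate difference was 0.95 ± 0.07 in sgHcar1 cells (limma adjusted p = 1.96e-07) and 0.00 ± 0.07 in sgControl cells (95% interval -0.15 to 0.15). The difference between them was 0.94 ± 0.10 (adjusted p = 1.01e-05). Mmp13 reached 1 FPKM only in sgHcar1 cells with lactate and entered the fit through those 3 libraries, so that it was called there is in part fixed by the filter.

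The inhibitors were the larger part of the message in 3 of the 4 groups. Timp1 (chromosome X, 20870166 to 20874735, plus strand), a secreted inhibitor that binds Mmp9 and also signals through Cd63, was at 162, 172 and 169 FPKM in sgControl cells in PBS and at 95.6, 102 and 97.9 FPKM with lactate. That fall, to 0.589 of the PBS mean, passed (-0.76 ± 0.06, limma adjusted p = 1.34e-06). In sgHcar1 cells Timp1 was at 57.9, 53.9 and 50.5 FPKM in PBS and at 62.7, 72.6 and 61.8 FPKM with lactate, 1.21-fold higher (0.27 ± 0.06, adjusted p = 0.00253). The groups did not overlap, but the rise rested on the scaling. It was 0.09 (adjusted p = 0.230) with every library rescaled to the same sum, where the median of all genes was -0.12, and 0.14 (adjusted p = 0.0741) after quantile normalization. The difference of the lactate effects was 1.03 ± 0.09 (adjusted p = 3.65e-06).

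Timp2 (chromosome 11, 118301069 to 118355740, minus strand), the inhibitor that docks the Mmp2 proenzyme on Mmp14, fell with lactate under both guides. In sgControl cells it went from 352, 339.7 and 335 FPKM to 199, 201 and 197 FPKM, which is 0.582 of the PBS mean (-0.78 ± 0.04, limma adjusted p = 1.35e-08). In sgHcar1 cells it went from 88.3, 86.5 and 95.8 FPKM to 33.5, 35.3 and 34.6 FPKM, 0.382 of the PBS mean (-1.36 ± 0.04, adjusted p = 8.55e-11). The groups did not overlap, and the fall was larger in sgHcar1 cells (difference -0.58 ± 0.05, adjusted p = 4.92e-06).

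Timp3 (chromosome 10, 86300372 to 86349506, plus strand), the inhibitor that stays bound to the matrix and also blocks Adam17, went the other way from Timp2 in sgControl cells. It was at 58.4, 53.3 and 53.8 FPKM in PBS and at 111, 108 and 113 FPKM with lactate, a 2.01-fold rise with no overlap (0.99 ± 0.04, limma adjusted p = 6.37e-09). In sgHcar1 cells it was at 0.00790, 0.00799 and 0.0297 FPKM in PBS and at 0.132, 0.148 and 0.223 FPKM with lactate. That rise also passed (0.20 ± 0.04, adjusted p = 0.00159), at levels far below those of sgControl cells. The difference of the lactate effects was -0.79 ± 0.06 (adjusted p = 1.59e-06), but with a pseudocount of 0.1 it was 0.20 (adjusted p = 0.330), so its direction depends on the pseudocount. The same setting ended the call of that difference for Mmp2 (-0.38 ± 0.04 against -0.14, adjusted p = 0.629) and Mmp9 (-0.59 ± 0.16 against -0.45, adjusted p = 0.311).

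**Figure D3:**
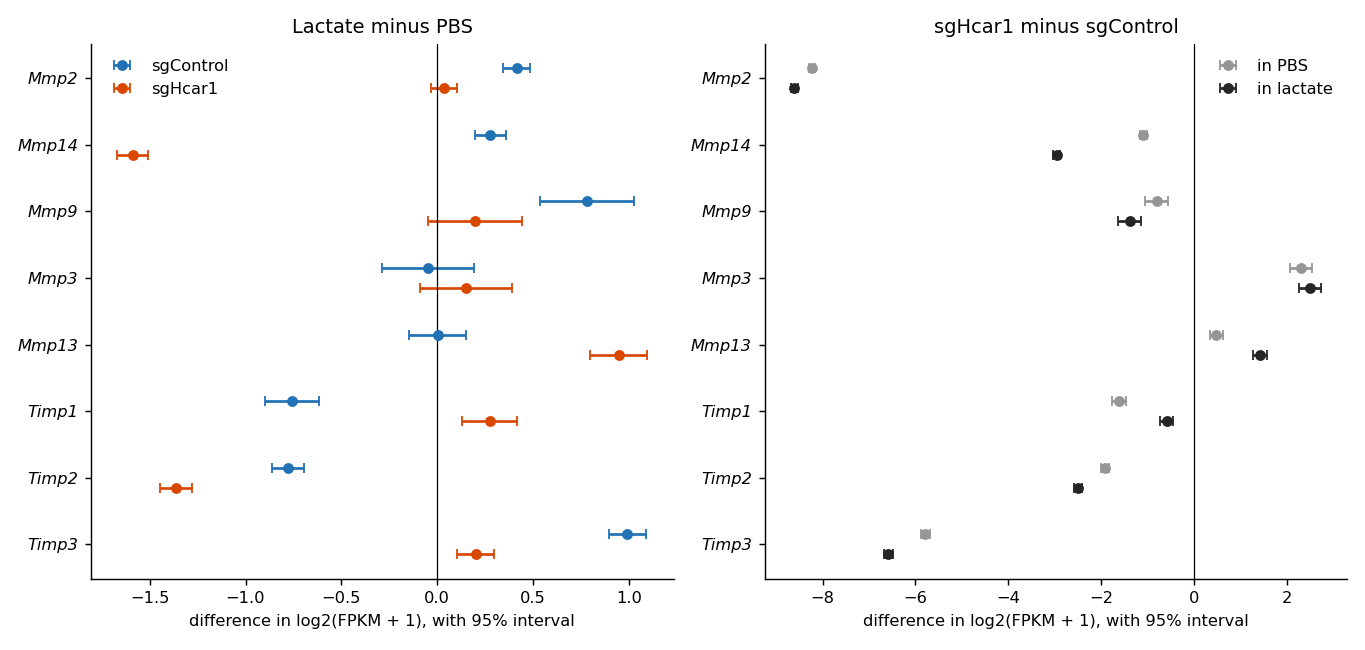
Differences in log2(FPKM + 1) with their 95% intervals from limma, for lactate minus PBS (left, sgControl blue and sgHcar1 orange) and for sgHcar1 minus sgControl (right, PBS gray and lactate black). Mmp14 (0.28 and -1.59) and Timp1 (-0.76 and 0.27) lie on opposite sides of 0 for lactate, and Mmp3 and Mmp13 alone lie above 0 between guides.

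Every one of the 8 genes passed between guides in PBS and again in lactate, 2 higher (Mmp3 and Mmp13) and 6 lower in sgHcar1 cells in both. The background was high, with 76.7% of all genes called in PBS (38.2% higher, 38.4% lower) and 82.2% in lactate (41.3% higher, 40.9% lower). The guides did not overlap for any of the 8 genes in either treatment, where 79.2% (PBS) and 82.3% (lactate) of all genes did not. Mmp2 and Timp3 entered the fit through sgControl libraries alone, Mmp9 through 4 sgControl libraries, and Mmp3 and Mmp13 through sgHcar1 libraries alone, so some difference between guides was fixed for them by the filter. For the 3 genes at 1 FPKM or more in all 12 libraries the differences in PBS were -1.09 ± 0.04 for Mmp14, -1.61 ± 0.06 for Timp1 and -1.91 ± 0.04 for Timp2. In lactate they were -2.96 ± 0.04, -0.58 ± 0.06 and -2.50 ± 0.04. Timp3 differed by -5.79 ± 0.04 in PBS and -6.58 ± 0.04 in lactate, number 27 and number 18 of all genes by absolute size. The labels name 1 guide against Hcar1, so its effect and the history of those cells cannot be told apart.

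Markers of colon epithelium and of other cell types differed between guides and between treatments too. All 7 lymphocyte markers and 5 of the 6 endothelium markers stayed below 1 FPKM in every library. The 9 colon epithelium markers with an entry summed to 4.07 to 4.64 FPKM in sgControl and 46.2 to 49.2 FPKM in sgHcar1 cells in PBS, nearly all of the latter from Krt18 (mean 46.2 FPKM). Cdh1 went the other way, at 1.72 and 4.53 FPKM in sgControl cells (PBS, lactate) and listed at 0 in all 6 sgHcar1 libraries. So did Krt19, at 1.31 and 0.300 FPKM in sgControl cells and at 0 in sgHcar1 cells. The 10 fibroblast markers summed to 145 to 147 FPKM in sgControl and 141 to 150.4 FPKM in sgHcar1 cells in PBS. Col3a1 was at 67.2 and 1.55 FPKM, Col1a1 at 1.01 and 23.1 FPKM, Col1a2 at 45.5 and 114.6 FPKM, and Lum and Thy1 were listed at 0. The 9 myeloid markers with an entry summed to 16.2 to 16.5 and 9.37 to 10.1 FPKM, with Adgre1 and Itgam listed at 0 throughout. With lactate, in the sgHcar1 libraries where Mmp14 and Timp2 were lower, the epithelium sum was 111 to 115 FPKM (Krt18 mean 113 FPKM). The fibroblast sum was 67.2 to 73.0 FPKM there (Col1a2 mean 51.1 FPKM) and the myeloid sum 9.10 to 12.1 FPKM. Myeloid markers went both ways there, with Cd14 lower than in PBS (mean 4.29 FPKM, log2 difference -0.72). Cd68 was higher (4.91 FPKM, 1.09), and so was S100a8 (1.37 FPKM, 0.93), which entered the fit through those lactate libraries alone. Among fibroblast markers Col1a1, Col1a2 and Col3a1 were lower there than in PBS, while Pdgfrb, Pdgfra and Dcn were higher. In sgControl cells with lactate the epithelium, fibroblast and myeloid sums were 6.18 to 6.72, 129.8 to 136 and 19.9 to 21.0 FPKM. The part of these in the members' differences between guides or treatments was not tested, and in bulk RNA fewer cells of a type and less RNA per cell cannot be told apart.

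As a description, the FPKM of the 5 metalloproteinases and of the 3 inhibitors were added up in each library. The metalloproteinases summed to 344 to 356 FPKM in sgControl cells in PBS and 458 to 465 FPKM with lactate, and to 24.1 to 28.2 and 13.4 to 13.7 FPKM in sgHcar1 cells. Mmp2 made up 86.1% to 87.6% of that sum in sgControl libraries, whereas in sgHcar1 cells Mmp14 made up 79.6% to 83.2% (PBS) and 46.6% to 48.7% (lactate). The inhibitors summed to 558 to 572 and 406 to 412 FPKM in sgControl cells and to 140.4 to 146 and 96.3 to 108 FPKM in sgHcar1 cells. The ratio of metalloproteinase to inhibitor message was 0.616 ± 0.00628 in sgControl cells in PBS and 1.13 ± 0.00240 with lactate. It was 0.183 ± 0.0154 in sgHcar1 cells in PBS and 0.135 ± 0.00974 with lactate, so the ratio was higher with lactate than with PBS in sgControl and lower in sgHcar1 cells. The largest inhibitor share in sgHcar1 cells passed from Timp2 (60.4% to 65.5% in PBS) to Timp1 (63.9% to 67.2% with lactate).

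**Figure D4:**
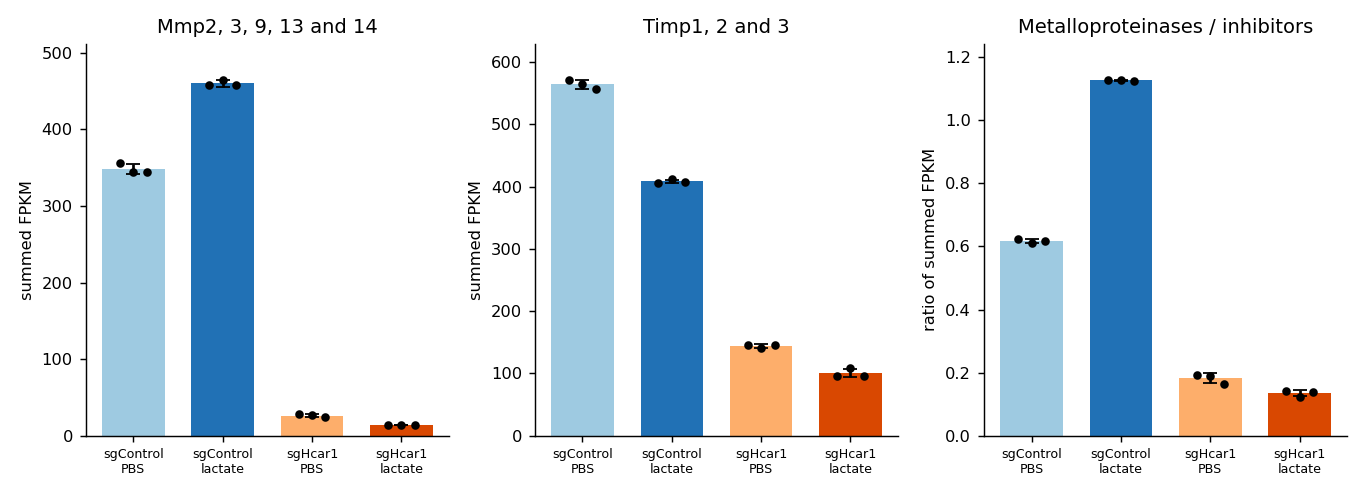
Summed FPKM of Mmp2, Mmp3, Mmp9, Mmp13 and Mmp14 (left), of Timp1, Timp2 and Timp3 (middle), and their ratio (right) by group. Bars are means, error bars SD and points the 3 libraries. The ratio lies between 1.12 and 1.13 in sgControl cells with lactate and at 0.193 or less in all sgHcar1 libraries.

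Other metalloproteinases were few. Of 18 further symbols (17 metalloproteinases and Timp4) 17 had an entry, 13 of these stayed below 1 FPKM in every library, and 3 were tested. Mmp11 (stromelysin 3) had the pattern of Mmp14, from 16.7 ± 0.693 to 30.7 ± 0.999 FPKM with lactate in sgControl cells (0.84 ± 0.06) and from 10.6 ± 0.908 to 3.55 ± 0.202 FPKM in sgHcar1 cells (-1.35 ± 0.06). Mmp19 and Mmp28 are given because they complete the count. Mmp19 rose under both guides, from 0.630 to 2.32 FPKM (1.02 ± 0.08) and from 0.675 to 2.07 FPKM (0.87 ± 0.08). It reached 1 FPKM in the 6 lactate libraries alone and entered the fit through them, so that it rose is in part fixed by the filter. Mmp28 was at 5.46 and 5.69 FPKM in sgControl cells (0.05 ± 0.07) and rose from 0.0653 to 0.296 FPKM in sgHcar1 cells (0.28 ± 0.07). The difference of the lactate effects passed for 1 of the 3, where 59.1% of all genes passed. It passed for 2 without sgControl lactate replicate 1 or without sgHcar1 lactate replicate 2. That of Mmp28 also passed with a pseudocount of 0.1, after quantile normalization and without the trend of variance on level. With every library rescaled to a sum of 1000000 both Mmp19 and Mmp28 passed, so the count rests on the settings.

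Among genes that act in the activation of metalloproteinases, lactate raised the urokinase receptor gene Plaur and Furin in sgHcar1 cells. Of 13 listed genes of plasminogen activation and proprotein convertases 8 stayed below 1 FPKM in every library and 4 were tested. Of these 4 genes 2 rose and 1 fell in sgHcar1 cells (median 0.62, against 0.00 over all genes). In sgControl cells 2 rose (median 0.17). Of all genes 36.8% were called higher and 35.4% lower in sgHcar1 cells, and 33.9% higher in sgControl cells. Plaur rose from 43.2 ± 0.206 to 154 ± 6.30 FPKM in sgHcar1 cells (1.81 ± 0.03) and from 27.4 ± 0.797 to 43.1 ± 1.20 FPKM in sgControl cells (0.63 ± 0.03). Furin, the convertase that cuts the Mmp14 proenzyme, rose from 10.1 to 20.9 FPKM in sgHcar1 cells (0.98 ± 0.05) while Mmp14 fell. Its rise in sgControl cells (0.18 ± 0.05) did not pass without sgControl PBS replicate 2 or sgControl lactate replicate 1, which left 1 of the 4 genes. Pcsk7, another convertase gene, fell in sgHcar1 cells (-0.24 ± 0.06) and had -0.12 ± 0.06 in sgControl cells, which passed without sgControl lactate replicate 3 (-0.16) or sgHcar1 lactate replicate 1 (-0.12). Plat, the tissue plasminogen activator gene, passed under neither guide (0.16 ± 0.11 in sgControl and 0.26 ± 0.11 in sgHcar1 cells). In sgHcar1 cells it passed without PBS replicate 2 (0.35) or without lactate replicate 2 (0.37), and with a mean of at least 5 FPKM. Quantile normalization changed 3 of these calls. After it Furin did not pass in sgControl cells, while Pcsk7 in sgControl and Plat in sgHcar1 cells did.

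Of 16 transcription factors with known sites in metalloproteinase promoters 12 rose and 3 fell with lactate in sgHcar1 cells (median 0.92), and 9 rose and 3 fell in sgControl cells (median 0.30). Of all genes 36.8% were called higher and 35.4% lower in sgHcar1 cells, and 33.9% and 31.9% in sgControl cells. Among the 16 factors are genes of AP-1 subunits. Fosb went from 2.15 ± 0.325 to 27.1 ± 2.67 FPKM in sgHcar1 cells (3.16 ± 0.11) and from 0.822 to 0.966 FPKM in sgControl cells (0.11 ± 0.11). Jun rose from 41.7 ± 0.761 to 158 ± 11.1 FPKM in sgHcar1 cells (1.90 ± 0.06) and fell from 81.2 ± 2.76 to 58.4 ± 4.17 FPKM in sgControl cells (-0.47 ± 0.06). Junb rose under both guides (1.94 ± 0.07 and 0.78 ± 0.07), and Jund passed in sgHcar1 cells (0.65 ± 0.06). Fos, chosen after its values were seen, was at 0.217 FPKM in PBS and 9.87 FPKM with lactate in sgHcar1 cells (3.16 ± 0.09), and it entered the fit through those 3 lactate libraries alone, so its tests are in part fixed by the filter. Mmp13, with AP-1 letters in its promoter, rose in the same libraries, through which it too entered the fit. Mmp3, with such letters too, stood at 4.52 ± 0.896 FPKM in PBS and 5.07 ± 0.163 FPKM with lactate in sgHcar1 cells. A part of AP-1 in the level of either gene was not tested.

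**Figure D5:**
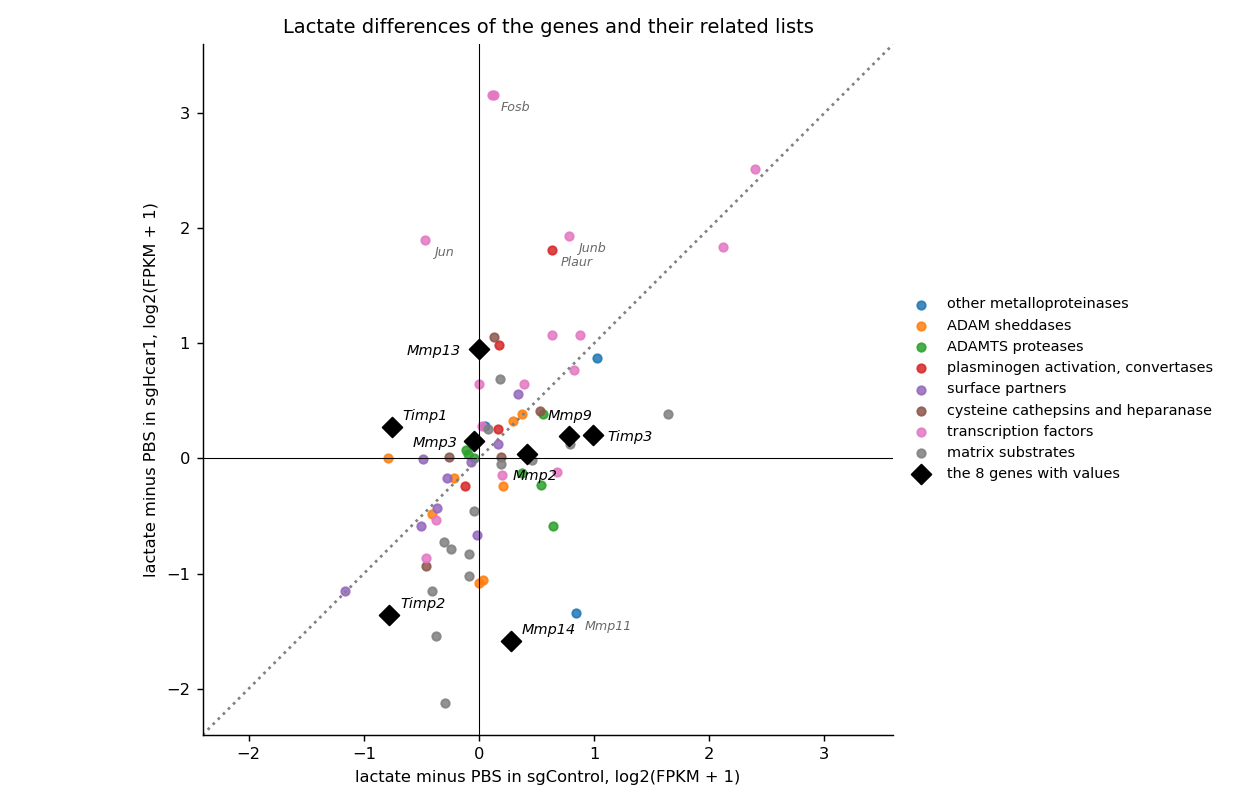
Lactate minus PBS in log2(FPKM + 1) in sgControl (horizontal) and sgHcar1 cells (vertical) for the 8 genes (black diamonds) and 66 tested genes of 8 related lists (colored points), with a dotted line of equal differences. Mmp14 and Mmp11 lie to the right of 0 and below it, Timp1 and Jun to the left of 0 and above it.

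The other lists moved in mixed directions. Beside the counts in this and the next paragraph, 33.9% of all genes were called higher and 31.9% lower with lactate in sgControl cells. In sgHcar1 cells these shares were 36.8% and 35.4%. Of 8 tested ADAM sheddases 3 rose and 3 fell with lactate in sgControl cells (median 0.02), and 2 rose and 5 fell in sgHcar1 cells (median -0.21). Adam17, which sheds TNF and EGF receptor ligands and is blocked by Timp3, rose in sgControl (0.21 ± 0.04) and fell in sgHcar1 cells (-0.24 ± 0.04). Adam33 fell from 13.4 to 5.92 FPKM in sgHcar1 cells (-1.06 ± 0.06) and was at 0.0181 and 0.0450 FPKM in sgControl cells. Of 7 tested ADAMTS proteases 4 rose in sgControl cells (median 0.37), Adamts7 by 0.37 ± 0.06, and in sgHcar1 cells 1 rose and 2 fell (median 0.00).

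Of 9 tested surface partners 2 rose and 6 fell in sgControl cells (median -0.28), and 2 rose and 4 fell in sgHcar1 cells (median -0.17). Cd63, the Timp1 receptor, rose under both guides (0.34 ± 0.04 and 0.56 ± 0.04), and caveolin gene Cav1 fell under both (-0.50 ± 0.02 and -0.59 ± 0.02). The tetraspanin gene Cd151 fell in sgHcar1 cells (-0.66 ± 0.04) and had -0.02 ± 0.04 in sgControl cells. Bsg, the metalloproteinase inducer EMMPRIN, was chosen after its values were seen. It fell from 393 ± 16.9 to 175 ± 4.51 FPKM in sgControl cells (-1.16 ± 0.04) and from 677 ± 19.0 to 304.5 ± 7.59 FPKM in sgHcar1 cells (-1.15 ± 0.04). Of 5 tested cysteine cathepsins and heparanase 2 rose and 2 fell in sgControl cells (median 0.13), and 2 rose and 1 fell in sgHcar1 cells (median 0.01). Ctsl rose under both guides (0.53 ± 0.03 and 0.41 ± 0.03) and Hpse, which cuts heparan sulfate, fell under both (-0.46 ± 0.05 and -0.94 ± 0.05). Ctsb rose in sgControl cells (0.19 ± 0.03, and 0.01 ± 0.03 in sgHcar1 cells), and Ctsh fell there (-0.26 ± 0.05), though not with a pseudocount of 0.1 (adjusted p = 0.0589).

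Of 14 tested matrix substrates 3 rose and 8 fell with lactate in sgHcar1 cells (median -0.59), where 35.4% of all genes were called lower. In sgControl cells 5 rose and 5 fell (median -0.06), where 31.9% of all genes were called lower. The difference of the lactate effects passed for 13 of the 14, 12 of them lower in sgHcar1 cells, where 59.1% of all genes passed, 30.4% higher and 28.7% lower. Col1a1 fell from 23.1 to 4.56 FPKM in sgHcar1 cells (-2.12 ± 0.07) and by 0.29 ± 0.07 in sgControl cells, where it was near 1 FPKM. Col1a1, Col1a2 and Col3a1 are on the fibroblast list too. The fibroblast sum went from 141 to 150.4 FPKM down to 67.2 to 73.0 FPKM with lactate in sgHcar1 cells. Most of that sum was Col1a2 (mean 114.6 to 51.1 FPKM), so its fall largely repeats matrix values. Of the other fibroblast markers Pdgfrb (5.08 to 11.6 FPKM), Pdgfra (0.462 to 0.702 FPKM) and Dcn (0.293 to 0.839 FPKM) rose there. A part of fibroblast content in the matrix values was not tested. Sparc fell from 79.0 to 26.5 FPKM in sgHcar1 cells (-1.54 ± 0.04) and from 615 to 476 FPKM in sgControl cells (-0.37 ± 0.04). Col3a1 fell in sgHcar1 cells (-1.02 ± 0.05) and was at 67.2 and 63.1 FPKM in sgControl cells (-0.09 ± 0.05). Spp1, a cut target of Mmp3, rose under both guides (1.64 ± 0.05 in sgControl and 0.38 ± 0.05 in sgHcar1 cells).

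The genes most like each member were sought by Pearson's r of log2(FPKM + 1) over the 12 libraries among 7626 named genes with a mean of at least 5 FPKM. The libraries form 4 tight groups, so r mostly reflects 4 group means, and 288 to 994 genes had r above 0.9 with a given member. Most like Mmp2 were Tgfbi (0.99993), Tcf7 (0.99989) and Prkd3 (0.99988). Tgfbi, a secreted matrix protein gene, was at 168 and 206 FPKM in sgControl cells and at 0 and 0.00884 FPKM in sgHcar1 cells. Most like Timp3 were Cachd1, Camk1d and Cpe (r 0.9995 each), and most like Timp2 were Flot2, Trim37 and Cpd (0.998 to 0.999). Mmp14 was most like Jade1, Add3 and Irf1 (0.995 to 0.997), Timp1 most like Rdh10 and Csrp2 (0.987 and 0.986), and Mmp9 most like Madd, Slc19a1 and Matn2 (0.983 to 0.991). Mmp3 was most like Lgals7, Ogn and Rgl1 (0.995 to 0.997) and Mmp13 most like Gm28321, Pcbp1 and Trip12 (0.994 to 0.996).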

How the data were processed

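RNA was sequenced from 12 libraries of MC38 cells, made with TruSeq from 1 ug of Trizol RNA per the labels. The authors deposited 1 table of FPKM, as its headers name the unit. Per the submitters' processing notes HISAT2 2.0.5, featureCounts 1.5.0-p3 and the build GRCm38 were used. The gene identifiers are of the C57BL/6NJ annotation, and filters and the fragments behind the library totals are not given in the sources used here. Columns were assigned by their letters, with K read as sgHcar1 by elimination. Counts were not used here, so no count test was run.

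The deposited FPKM were put on the log2 scale after adding a pseudocount of 1. A gene entered the fit when 3 or more libraries had 1 FPKM or more, which left 13736 genes. limma 3.58.1 (R 4.3.3) estimated the 4 group means from the 12 libraries together, with no replicate block and with a trend of the prior variance on level. Each of 5 contrasts had two-sided tests, adjusted over its genes by Benjamini-Hochberg, with a threshold of 0.05, and the code was tested on simulated data. The settings varied were the pseudocount (0.1), the filter (none, or a mean of 5 FPKM), the scaling (median-ratio, a sum of 1000000, quantile), the trend, a replicate block, array weights, the groups in the fit, and the omission of single libraries.

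The members and the gene lists were chosen with earlier results of these data known. Members are always named. List genes are those with a group mean of at least 10 FPKM or, where over 4, the 4 with the largest called difference of the lactate effects. Gene coordinates are from GENCODE on GRCm38 and promoters from RefSeq on GRCm38.p6, matched by symbol. Protein sequences were not used here, and results for some genes are not reported here. Tables were made in Python 3.11.15 with pandas 2.3.3, and figures with matplotlib 3.10.9.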

Additional observations from a re-analysis of the deposited data

Results flagged for a closer look

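The lactate effect differed between sgHcar1 and sgControl cells by limma's test of that difference for 7 of the 8 genes, where 59.1% of all genes passed. The log2 values, sgHcar1 minus sgControl, were -1.87 for Mmp14, 1.03 for Timp1, 0.94 for Mmp13, -0.79 for Timp3, -0.59 for Mmp9, -0.58 for Timp2 and -0.38 for Mmp2. Those of Mmp2, Mmp9 and Timp3 rest on levels below 0.5 FPKM in sgHcar1 cells and did not pass with a pseudocount of 0.1.

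The named genes of the related lists were in part chosen for the size of this same difference, so their values are a description and no count of them is read. The difference was -2.19 for Mmp11, -0.45 for Adam17, -1.10 for Adam33 and -0.50 for Adamts7. Adamts7 was at 0.164 FPKM in PBS and 0.0658 FPKM with lactate in sgHcar1 cells. Its difference ran from -1.09 to -0.46 over the other settings. It was 1.18 for Plaur and 0.80 for Furin. Surface partners had 0.22 (Cd63), -0.64 (Cd151) and -0.084 (Cav1, adjusted p = 0.0482, not passed without any 1 library other than sgHcar1 PBS replicate 3). Cathepsin genes and heparanase had -0.18 (Ctsb), -0.12 (Ctsl), 0.28 (Ctsh) and -0.48 (Hpse). That of Ctsl did not pass without the filter on low values (limma adjusted p = 0.0742). That of Ctsh did not pass with a pseudocount of 0.1 (limma adjusted p = 0.0558). For lactate Ctsh had -0.26 in sgControl and 0.01 in sgHcar1 cells. Among the AP-1 subunit genes other than Fosl1 and Fosl2 the values were 3.05 (Fosb), 2.37 (Jun), 1.15 (Junb) and 0.65 (Jund). Fos had 3.03 and was in the fit only through its sgHcar1 lactate libraries. Fosl1 and Fosl2, not chosen by this difference, had higher means with lactate under both guides. Matrix genes had -1.83 (Col1a1), -0.94 (Col3a1), -1.26 (Spp1) and -1.18 (Sparc).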

How the results depend on the processing

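Of 857 recomputed values of the 8 genes 850 kept their direction and their side of the threshold, 4 no longer passed, 2 now passed and 1 reversed, the Timp3 difference of lactate effects (0.20 with a pseudocount of 0.1). Of 1740 values of 27 named list genes 1691 kept both, 22 no longer passed, 22 now passed and 5 reversed. Fosl1, Fosl2 and Col1a2 were not among these. With libraries rescaled to a sum of 1000000 the difference was -0.22 for Bsg and -0.012 for Cd63, and Ctsb had -0.17 in sgHcar1 cells. After quantile normalization Cd63 had -0.16 and Ctsb -0.11. Of 520 list counts 496 stayed within 1.5 times and 24 did not.

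With a pseudocount of 0.1 the difference passed for 4 of the 8 genes. A mean of at least 5 FPKM leaves fewer genes to test, 8262 in all and 5 of the 8, and all 5 passed between guides in PBS and in lactate, with 6815 and 7191 genes called in place of 10529 and 11292. Rescaling to 1000000 set the metalloproteinase sums to 1077 and 1470.1 in sgControl cells (PBS, lactate) and 71.9 and 32.5 in sgHcar1 cells, and the inhibitor sums to 1748, 1305, 394 and 241. Median-ratio scaling gave 456 and 404.7 in sgControl cells with lactate. The ratios are the same under any such scaling.

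Leaving out each library in turn gave 8524 to 9051 genes for lactate in sgControl cells, 9541 to 9895 in sgHcar1 cells, 7716 to 7929 for the difference, and 10120 to 10558 (PBS) and 10980 to 11275 (lactate) between guides. Of the 8 genes 6, 5 to 6, 7, 8 and 8 passed. Same-numbered libraries did not deviate together (correlations -0.0505 to 0.0850), so no effect shared by equal numbers was visible. Whether they were handled as pairs is not stated in the labels, and such correlations cannot decide it. With a replicate block 8938, 9899, 8044, 10480 and 11260 genes and 6, 5, 7, 8 and 8 of the 8 passed in these comparisons. A library correlated best with its own number in 11 of 36 checks. Depth is unknown, so levels below about 0.1 FPKM rest on few fragments.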
